A study of Homo sapiens with 4 samples.

Results

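The genes described here are 10 members of the YAP and TEAD pathway. They are the coactivators YAP1 and WWTR1, the DNA-binding partners TEAD1, TEAD2, TEAD3 and TEAD4, the target genes CCN1 and CCN2, and the kinases LATS1 and LATS2. The list was taken by gene name out of 19962 protein-coding genes of the GENCODE version 44 annotation. Peaks of open chromatin were assigned to a gene in 2 ways. A peak counted as a promoter peak when it touched the window from 3 kb before to 3 kb after any annotated transcript start site (TSS) of the gene, and a peak near the gene overlapped the gene body extended by 50 kb at both ends. The rule left 54 of 47610 control peaks and 53 of 42682 sgSNHG1 peaks near the 10 genes, which is 0.113% and 0.124% of the lists.

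Chromatin accessibility was profiled by ATAC-seq, in which the Tn5 transposase inserts sequencing adapters into open chromatin, in the MYCN-amplified human neuroblastoma cell line SK-N-BE(2)C. Control cells (2 replicates) were wildtype for SNHG1 and carried a non-targeting control gRNA, and sgSNHG1 cells (2 replicates) carried an SNHG1 gRNA and are labelled as SNHG1 knockout. Per the study, SNHG1 expression in such cells was reduced and not fully lost, so that they are a model of depletion. SNHG1 encodes a long non-coding RNA whose introns carry small nucleolar RNAs. Both groups had gone through transfection of Cas9 with dual guides and a reporter, puromycin selection and growth from single sorted cells, so that each group derives from clones, and a difference between clones cannot be told apart from an effect of SNHG1. The control line was 1 clone, and which of the SNHG1-depleted clones gave the ATAC-seq libraries is not given in the sources used here. The replicates of each group were combined by the authors before peaks were called. Each group therefore gives 1 value per peak with no replicate spread, and no test between the groups was possible.

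The value of a peak is its fold enrichment, which is the height of the fragment pileup at the summit over the local background of the same list, after 1 fragment is added to both. The added fragment weighs more in the shallower sgSNHG1 list, so that directions are also given without it. The median summit pileup was 24 fragments in control and 20 in sgSNHG1, and no peak rested on fewer than 10 and 9 fragments, respectively. Peaks were also shorter in sgSNHG1, with a median width of 238 bp against 332 bp in control. Errors given below are counting errors from these pileups. A log2 ratio of sgSNHG1 over control was called only when it was larger than 2 of its counting standard errors (SE). The labelled line was checked against marker genes. Promoter peaks were present in both lists at 7 of 9 adrenergic neuroblastoma markers, among them MYCN, HAND2, ISL1, GATA3, PHOX2A and DBH. TH was among the markers with none in either list, and all 5 mesenchymal markers had a promoter peak in both lists, so that these peaks do not separate the cell states. Of the marker genes with a peak in both lists, MYCN alone passed 2 counting SE in fold enrichment, with 4.30 in control and 3.89 in sgSNHG1 from pileups of 3507 and 2068 fragments. Its log2 ratio was small at -0.14, and these pileups give a counting SE of 0.04. Larger ratios from fewer fragments were not called, among them GATA3 at 0.44 (SE 0.33) and DBH at -0.37 (SE 0.42). Of all genes with a peak in both lists, 1.31% were lower past 2 counting SE.

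YAP1 and WWTR1 (also called TAZ) are transcriptional coactivators that cannot bind DNA themselves and act through the TEAD proteins. When the Hippo kinase cascade is active, the LATS kinases phosphorylate both coactivators, which are then held in the cytoplasm or degraded. Nuclear YAP1 and WWTR1 bind TEAD proteins at enhancers and promoters and switch on growth and matrix genes such as CCN1 and CCN2. In neuroblastoma, YAP1 activity has been linked to the mesenchymal rather than the adrenergic cell state.

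The DNA that TEAD proteins recognise is shown first for 2 member promoters, because these sequences lie under a peak in one and outside any peak in the other. The stretches are the 250 bases before the main TSS of YAP1 (chr11:102110197-102110446, plus strand) and of CCN2 (chr6:131951373-131951622, minus strand), taken from RefSeq (GRCh38.p14). They are written 5′ to 3′ on the strand of the gene, and capitals mark the 6-letter TEAD core CATTCC, which reads GGAATG on the other strand.
YAP1 upstream: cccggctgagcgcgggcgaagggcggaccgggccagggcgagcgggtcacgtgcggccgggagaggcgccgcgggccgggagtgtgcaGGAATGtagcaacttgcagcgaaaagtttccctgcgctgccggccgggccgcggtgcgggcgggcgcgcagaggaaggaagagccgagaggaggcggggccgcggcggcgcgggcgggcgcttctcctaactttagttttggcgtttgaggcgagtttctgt
CCN2 upstream: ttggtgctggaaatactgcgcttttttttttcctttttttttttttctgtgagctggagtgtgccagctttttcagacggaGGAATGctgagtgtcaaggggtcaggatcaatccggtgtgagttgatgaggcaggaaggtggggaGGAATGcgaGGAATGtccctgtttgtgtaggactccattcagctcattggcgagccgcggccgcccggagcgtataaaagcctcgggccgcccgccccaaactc
The YAP1 stretch held 1 core, whose first base lay at position -162 from the TSS, and the CCN2 stretch held 3, at -169, -104 and -95. The cores at -162 of YAP1 and at -95 of CCN2 belonged to matches of the longer 7-letter sequence ACATTCC, which contains the core. Both strands were searched. Of 35116 RefSeq promoter windows of 300 bases (250 before and 50 after a start), 14.0% held at least 1 core, 3.46% held the 7-letter sequence and 0.128% (45 windows) held 3 or more cores. Windows were matched for 7 of the 10 genes and not for TEAD1, TEAD4 and CCN1, and besides YAP1 and CCN2 only LATS2 had a core in its window, at position 10 after the start.

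Peaks covered 246 of the 250 bases upstream of YAP1 in control and 240 in sgSNHG1. The match at -162 lay 1 bp from the control summit and 28 bp from the sgSNHG1 summit. At CCN2 no peak of either list covered any of the 250 bases. Between the 7-letter match at -95 and the closest peak lay 348 bp in control and 515 bp in sgSNHG1, towards the transcribed gene in both lists. A match is a description of the letters and says nothing of whether a TEAD protein was bound.

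To compare the promoters, the peak with the highest fold enrichment was taken for each gene. A promoter peak was found for 9 of the 10 genes in control and for 7 in sgSNHG1. Only the control list had one at TEAD2 and TEAD3, and LATS2 had none in either list. Among all protein-coding genes with a promoter peak in either list, 8.47% had it in control alone and 2.77% in sgSNHG1 alone, against 2 and 0 of these 9 genes. Of the 7 genes with a peak in both lists, 6 were lower and 1 was higher in sgSNHG1 by any size, where 60.4% of all such genes were lower. With no fragment added, 4 were lower and 3 higher (WWTR1, CCN1 and CCN2), where 50.5% of all such genes were lower, so that the count of directions depends on the added fragment. None of the 7 passed 2 counting SE, where 1.31% of all 12709 genes with a peak in both lists were lower and 0.464% were higher past that limit. The median log2 ratio was -0.13 over the 7 genes and -0.07 over all genes, and with no fragment added these were -0.07 and -0.003.

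**Figure D1:**
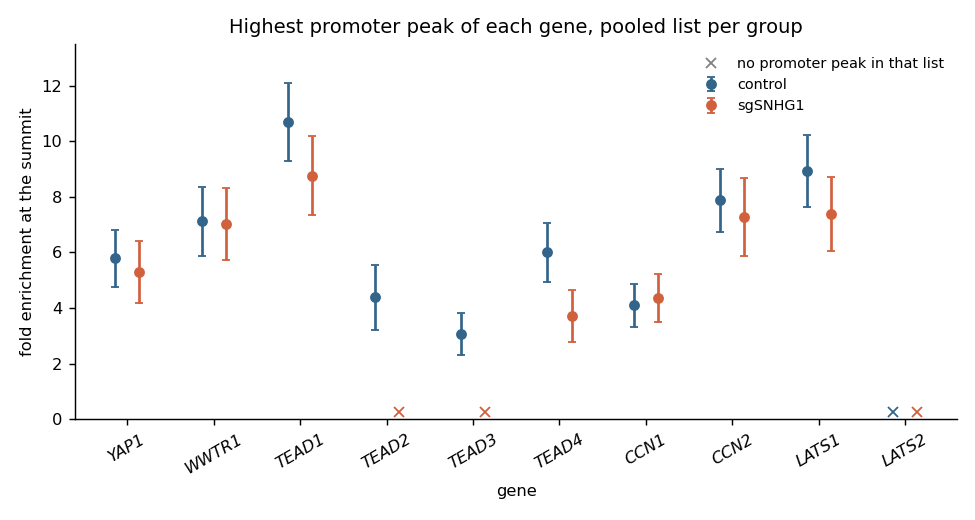
Fold enrichment (no unit) of the highest promoter peak of each of the 10 genes in the pooled control list (blue) and the pooled sgSNHG1 list (orange). Bars are counting errors of the summit pileup, crosses mark genes with no promoter peak in that list, and the largest distance between the lists, at TEAD4, runs from 6.01 to 3.72.

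The coactivators were examined first. YAP1 (ENSG00000137693.14, plus strand of chromosome 11) had a promoter peak at chr11:102109879-102110442 in control and at chr11:102110131-102110436 in sgSNHG1. Its fold enrichment was 5.79 ± 1.02 in control (pileup of 32 fragments) and 5.29 ± 1.10 in sgSNHG1 (23 fragments). The log2 ratio was -0.13 with a counting SE of 0.39, so that no difference was detectable at this depth. The peak was 564 bp wide in control and 306 bp in sgSNHG1. Both versions lay wholly upstream of the main TSS, with the summits at -158 and -131 bp. Further away, the control list held 1 other peak, 158 kb after the TSS and beyond the end of the gene, with a fold enrichment of 5.76, and the sgSNHG1 peak at this site had 4.89. Within the YAP1 introns the sgSNHG1 list held 2 peaks that control lacked. One lay 77.6 kb after the main TSS, within 3 kb of the start of a shorter transcript, with a fold enrichment of 4.61 (15 fragments). The other lay 101.7 kb after it with 3.78 (11 fragments). Both rested on pileups below the sgSNHG1 median of 20, and 21.8% of all sgSNHG1 peaks had no control peak.

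WWTR1 (ENSG00000018408.15, minus strand of chromosome 3) had no peak within 3 kb of its main TSS in either list. Its promoter peak lay inside the gene, 82210 bp after the main TSS and near the start of a shorter transcript. It spanned chr3:149575714-149576050 in control and chr3:149575654-149575921 in sgSNHG1. The fold enrichment was 7.12 ± 1.24 in control (33 fragments) and 7.02 ± 1.30 in sgSNHG1 (29 fragments), a log2 ratio of -0.02 (SE 0.37). With the pileup scaled to the genome-wide background of each list in place of fold enrichment (scaled pileup), the ratio was 0.17, and with no fragment added it was 0.02, so that its sign depended on the scale. WWTR1 had 10 peaks within 50 kb in control and 9 in sgSNHG1. The highest, upstream of the gene at the promoter of the neighbour COMMD2, had 10.9 in control and 10.8 in sgSNHG1. The sgSNHG1 list alone held a peak 19.1 kb after the main TSS with 4.41 (14 fragments), and the control list alone held 3 peaks with 4.33 to 5.15 (18 to 21 fragments). Of all peaks, 21.8% in sgSNHG1 and 33.3% in control were without a partner.

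The 4 TEAD genes, which encode the DNA-binding partners, differed widely in the promoter peak. TEAD1 (ENSG00000187079.20, plus strand of chromosome 11) had the highest value of all 10 genes in both lists. A peak over its main TSS (chr11:12673889-12674711 in control, chr11:12674069-12674700 in sgSNHG1) reached 10.7 ± 1.40 in control (58 fragments) and 8.77 ± 1.42 in sgSNHG1 (38 fragments). Among genes with a promoter peak it stood above 83.7% in control and 68.8% in sgSNHG1. The log2 ratio was -0.29 (SE 0.30), within the counting error.

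TEAD4 (ENSG00000197905.10, plus strand of chromosome 12) showed the largest ratio of the 7 genes with a peak in both lists. The control list had 2 promoter peaks, of 737 bp and 398 bp, and each was overlapped by 2 shorter peaks in sgSNHG1. The highest value was 6.01 ± 1.06 in control (32 fragments) and 3.72 ± 0.93 in sgSNHG1 (16 fragments), a log2 ratio of -0.69 (SE 0.44). These values come from neighbouring sites. Pairs by longest overlap also had unlike summits. The control peak with its summit at -271 bp from the main TSS had 6.01. Its sgSNHG1 counterpart, with its summit at -422 bp, had 3.62, a log2 ratio of -0.73 (SE 0.45). The other control peak, with its summit 657 bp after the TSS, had 3.69. The sgSNHG1 peak that overlapped it longest had 3.72, with its summit at 343 bp. The sgSNHG1 peak with its summit at 692 bp had 3.04 (13 fragments). Neither ratio passed 2 counting SE.

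TEAD2 and TEAD3 had weak promoter peaks in control and none in sgSNHG1. The TEAD2 peak (chr19:49363645-49363903) had its summit at -1299 bp from the main TSS of TEAD2 (ENSG00000074219.14, minus strand) and within the promoter window of the neighbour DKKL1 as well. It had a fold enrichment of 4.38 ± 1.17 from 14 fragments and a -log10 q of 4.87. It was the sole peak within 50 kb of TEAD2 in either list, and the nearest sgSNHG1 peak was 79606 bp from it. The TEAD3 peak (chr6:35497188-35497333) had its summit at -210 bp from the main TSS of TEAD3 (ENSG00000007866.22, minus strand), with a fold enrichment of 3.07 ± 0.74 from 17 fragments and a -log10 q of 3.10. Only 0.180% of genes with a control promoter peak had a lower value. With a -log10 q of at least 5 required, neither peak remained. Pairs of peaks in the 5 Mb on either side had a median scaled pileup ratio of 0.23 at TEAD2 (106 pairs) and 0.15 at TEAD3 (189 pairs), above 0 at both genes. At the other genes this median ran from -0.15 (YAP1) to 0.15 (LATS2). Why the sgSNHG1 list lacked the TEAD2 and TEAD3 peaks was not tested. Absence from a list does not show that the site was closed.

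**Figure D2:**
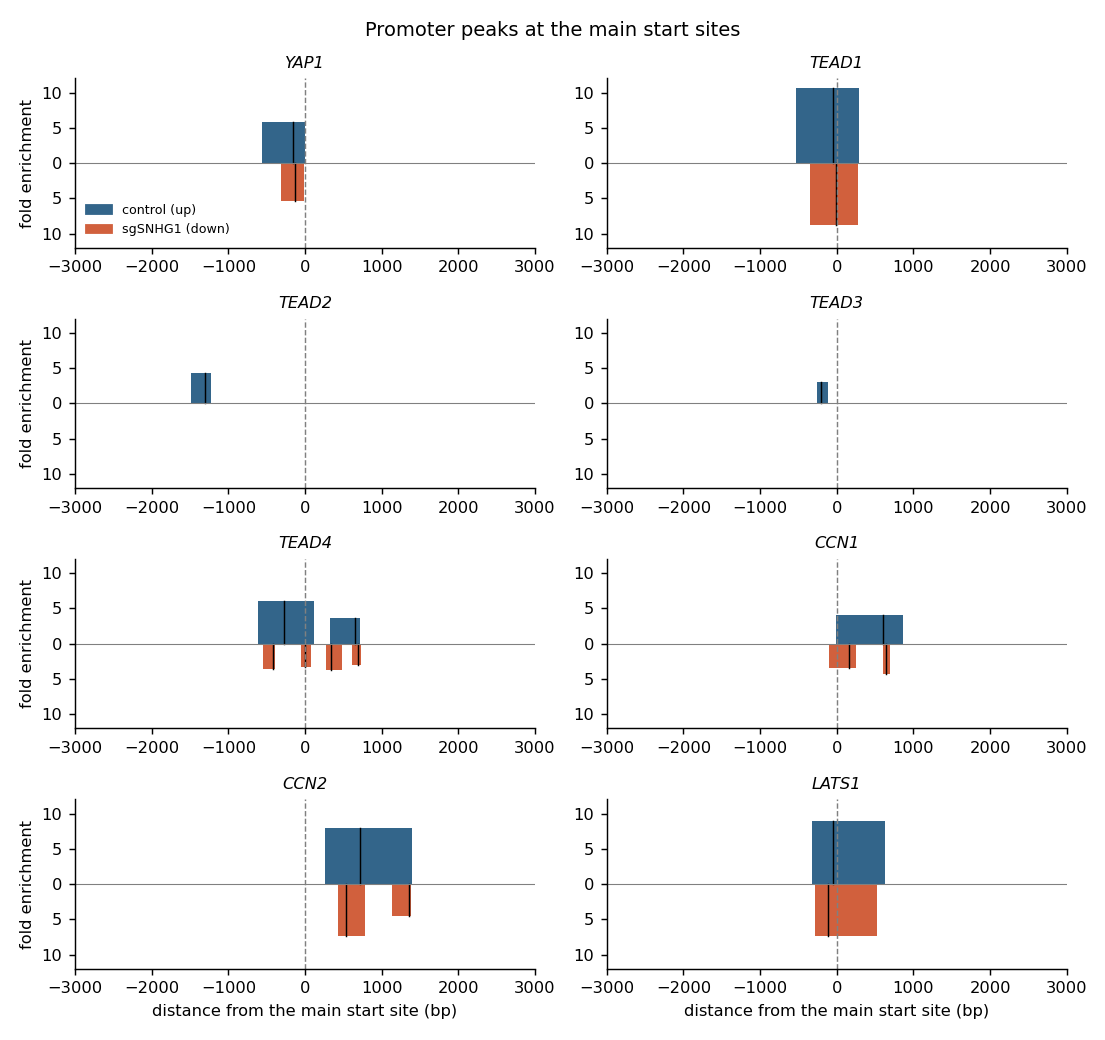
Peaks within 3000 bp of the main TSS of the 8 genes that have one in at least 1 list, by distance from the TSS in bp (x axis, transcription to the right). Block height is fold enrichment at the summit (black line), control upwards and sgSNHG1 downwards. At TEAD4, CCN1 and CCN2, wide control peaks stand over pairs of shorter sgSNHG1 peaks, and TEAD2 and TEAD3 have a control peak alone.

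The target genes CCN1 and CCN2 encode secreted matricellular proteins and are common readouts of YAP activity. CCN1 (ENSG00000142871.18, plus strand of chromosome 1) had a control peak of 876 bp over its main TSS (chr1:85580752-85581627) with a fold enrichment of 4.09 ± 0.76 (29 fragments). The summit of this control peak lay 600 bp after the TSS, and the peak also touched the promoter window of the neighbour DDAH1. In sgSNHG1 it was met by a peak of 347 bp with 3.47 (20 fragments) and a peak of 98 bp with 4.35 ± 0.87 (25 fragments). The peak of 98 bp, with its summit at 637 bp, did not cover the main TSS. From the highest values the log2 ratio was 0.09 (SE 0.39), the sole fold enrichment ratio above 0 among the 7 genes, whereas the pair with the longest overlap gave -0.24 (SE 0.42). Both were within the counting error. Promoter peaks as low as that of CCN1 were uncommon, as 6.07% of genes in control and 8.01% in sgSNHG1 had a lower value. A neighbouring upstream peak at the promoter of DDAH1 had 6.13 in control and 6.07 in sgSNHG1.

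CCN2 (ENSG00000118523.6, minus strand of chromosome 6) had its open chromatin within the transcribed gene. The control peak (chr6:131949983-131951113) was 1131 bp wide, lay wholly after the TSS and had its summit 715 bp from it. This peak also touched the promoter window of the neighbour LINC01013. It was overlapped by sgSNHG1 peaks of 250 bp and 363 bp, which together covered 613 of its bases. Fold enrichment was 7.88 ± 1.14 in control (48 fragments) and 7.28 ± 1.40 in sgSNHG1 (27 fragments), a log2 ratio of -0.11 (SE 0.35). The scaled pileup ratio was -0.47 and the ratio with no fragment added was 0.05, so that its sign depended on the scale. The local background at the summit was 5.22 fragments in control and 2.84 in sgSNHG1. None of these ratios passed 2 counting SE. Outside the gene, control had 2 peaks that sgSNHG1 lacked, 27.8 kb and 36.0 kb after the TSS, with 5.93 and 4.29, where 33.3% of all control peaks had no sgSNHG1 peak.

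The kinases LATS1 and LATS2, which phosphorylate YAP1 and WWTR1, differed in whether a peak was found at all. LATS1 (ENSG00000131023.13, minus strand of chromosome 6) had a wide peak over its main TSS in both lists (chr6:149717465-149718419 in control, chr6:149717581-149718381 in sgSNHG1). Its fold enrichment was 8.93 ± 1.30 in control (47 fragments) and 7.38 ± 1.33 in sgSNHG1 (31 fragments), a log2 ratio of -0.27 (SE 0.33). All 4 control peaks and all 5 sgSNHG1 peaks near LATS1 overlapped the other list, where 33.3% of all control and 21.8% of all sgSNHG1 peaks did not. Of these peaks, 3 in control and 4 in sgSNHG1 lay at promoters of the neighbours KATNA1, NUP43 and PCMT1. LATS2 (ENSG00000150457.9, chr13:20973036-21061586, minus strand) had no peak within 50 kb in either list. The nearest peak was 69981 bp from the gene in control and 63383 bp in sgSNHG1. On the scaled pileup, 5 of the 7 genes with a peak in both lists were lower, their median log2 ratio was -0.24 against -0.04 over all genes, and none passed 2 counting SE.

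The wider neighbourhoods were compared next. Of the 54 control peaks near the genes, 68.5% (95% Wilson interval 55.3 to 79.3) overlapped an sgSNHG1 peak, and of the 53 sgSNHG1 peaks 81.1% (68.6 to 89.4) overlapped a control peak. That left 17 control peaks and 10 sgSNHG1 peaks without a partner. Over the whole lists, 33.3% of control peaks and 21.8% of sgSNHG1 peaks had none. Of the peaks near the genes, 16 in control and 16 in sgSNHG1 lay at promoters of other genes. Without these, 60.5% of 38 control peaks and 75.7% of 37 sgSNHG1 peaks overlapped the other list. The whole-list shares above include promoter peaks, and no share over all peaks chosen in this way is given here. The unshared peaks near the genes were weak, with a median -log10 q of 5.89 in control and 4.51 in sgSNHG1, against 17.2 and 8.32 for the shared ones. In total the peaks covered 23640 bp in control and 14545 bp in sgSNHG1, a ratio of 0.615, with mean fold enrichments of 6.39 and 5.71. The sgSNHG1 list as a whole was also smaller, at 42682 peaks against 47610, with shorter peaks (median width 238 against 332 bp). Its median fold enrichment of 5.54 was close to the 5.53 of the control list. No total or mean over all peaks is given here, so that a difference from all peaks was not tested.

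**Figure D3:**
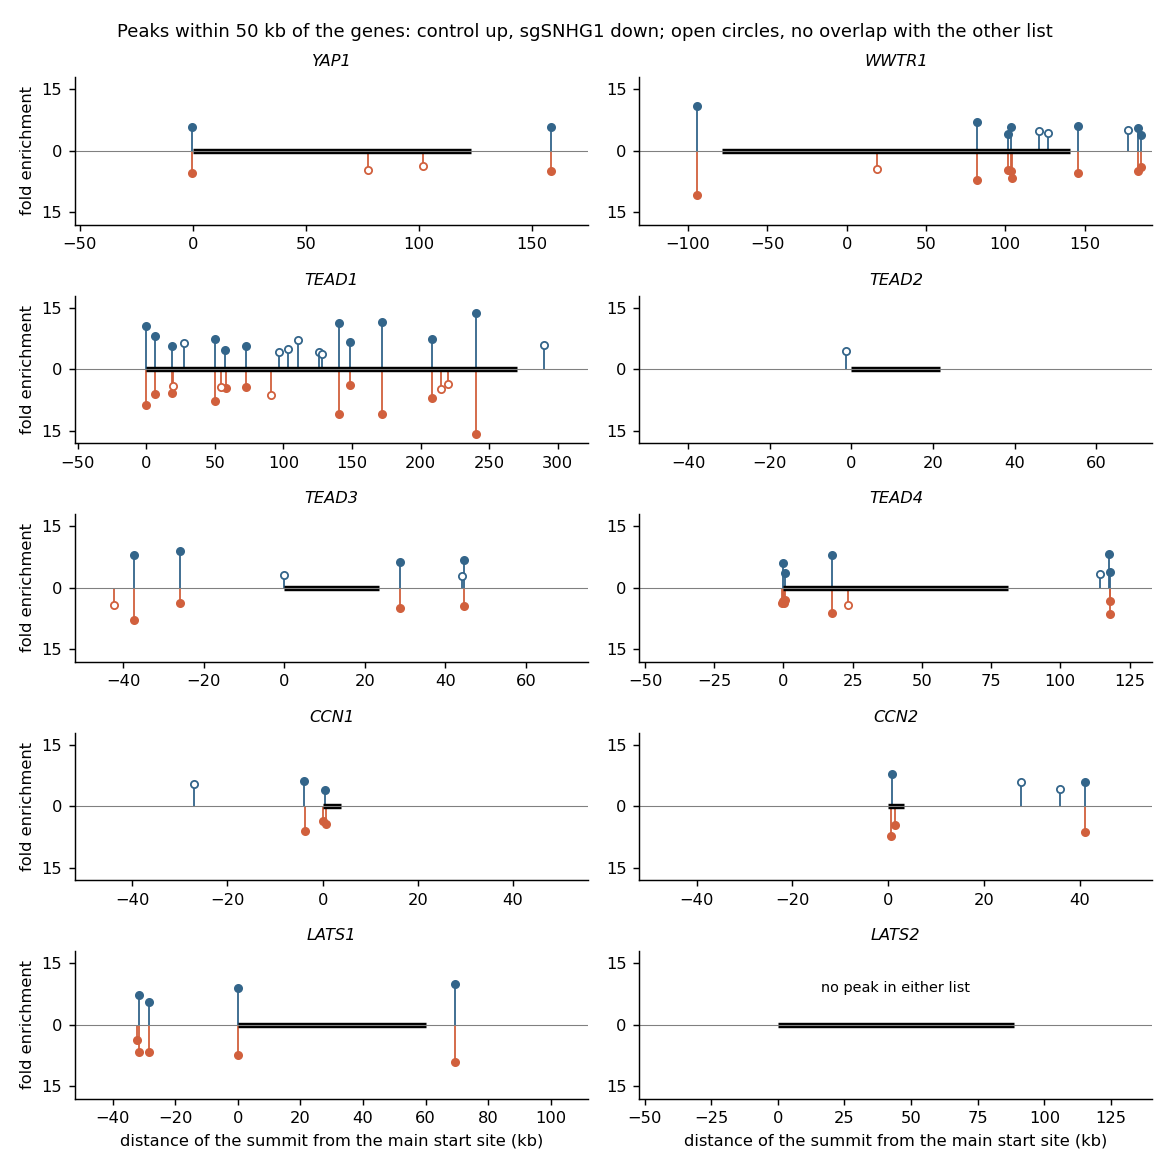
Every peak within 50 kb of each of the 10 genes, by distance of its summit from the main TSS in kb (x axis). Stems give fold enrichment, control upwards and sgSNHG1 downwards, filled circles overlap a peak of the other list, open circles do not, and the black bar is the gene. TEAD1 carries the most peaks (18 and 16), and LATS2 carries none.

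TEAD1, a gene of 270 kb, held the largest group, with 18 control and 16 sgSNHG1 peaks. Its highest peaks lay in introns, far from the promoter. The highest of all, 240 kb after the main TSS (chr11:12914421-12915130 in control), reached 13.8 (77 fragments) in control and 15.7 (76 fragments) in sgSNHG1, a log2 ratio of 0.19 (SE 0.23). An intronic peak 140.6 kb after the TSS had 11.4 (84 fragments) and 10.9 (56 fragments). Another, at 171.7 kb and within the promoter window of a gene that lies in the TEAD1 intron, had 11.6 (76 fragments) and 10.9 (58 fragments). An intronic peak at 6.15 kb had 8.24 (36 fragments) and 5.88 (22 fragments), a ratio of -0.49 (SE 0.39). TEAD1 also held 7 of the 17 peaks found in control alone and 5 of the 10 found in sgSNHG1 alone. These were 7 of its 18 control and 5 of its 16 sgSNHG1 peaks. Over the whole lists 33.3% and 21.8% had no partner. Of those in control alone, the strongest lay 110.7 kb after the TSS with 7.24 (27 fragments, -log10 q of 14.9). Of those in sgSNHG1 alone, the strongest lay 91.2 kb after the TSS with 6.30 (21 fragments, -log10 q of 10.3).

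Across the genes, 37 pairs of peaks could be matched as mutual best overlaps. The log2 ratio was below 0 in 30 pairs and above 0 in 7, where 55.6% of all 31663 pairs were below 0. With no fragment added, 22 were below 0 and 15 above, where 46.3% of all pairs were below 0. The median was -0.14 near the genes and -0.05 over all pairs (-0.07 and 0.03 with no fragment added), and the median counting SE of a pair near the genes was 0.39. Without peaks at promoters of other genes, 23 pairs remained with a median of -0.13. Of the 37 pairs, 1 was lower past 2 counting SE and 0 were higher, where 1.55% of all pairs were lower and 1.13% were higher past that limit. The same pair was the sole one past it with no fragment added, where 0.944% of all pairs were lower. The sgSNHG1 peak was the narrower one in 34 of 37 pairs and in 79.8% of all pairs. The median log2 width ratio was -0.63 near the genes and -0.42 over all pairs. Of the 54 control peaks, 6 were overlapped by 2 or more sgSNHG1 peaks (at WWTR1, TEAD4, CCN1, CCN2 and LATS1), where 3.46% of all control peaks were. The shortest peak was 119 bp in the control list and 92 bp in the sgSNHG1 list, so that peak limits were not drawn alike in the lists, and the part of this in the narrower and split peaks was not tested.

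**Figure D4:**
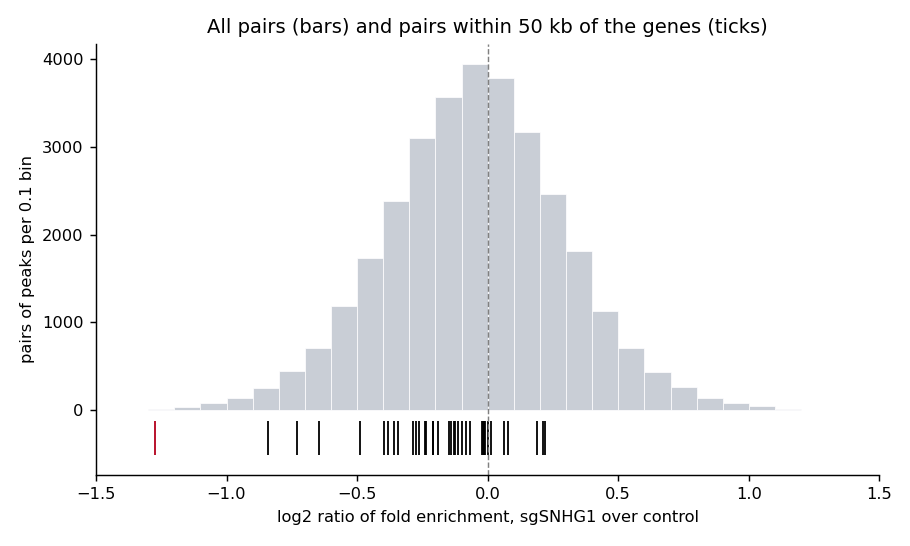
Number of peak pairs (y axis) by log2 ratio of fold enrichment between sgSNHG1 and control (x axis), for all 31663 pairs in bins of 0.1. Ticks under the bars are the 37 pairs near the 10 genes, of which 30 lie below 0 (22 with no fragment added), and the red tick at -1.27 is the pair upstream of TEAD3.

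The single called pair lay upstream of TEAD3, with its summit at -25.9 kb from the main TSS and outside promoters. The control peak (chr6:35522776-35523259) was 484 bp wide with a fold enrichment of 8.96 (31 fragments), and the sgSNHG1 peak (chr6:35522899-35523029) was 131 bp wide with 3.71 (10 fragments). The log2 ratio was -1.27 (SE 0.52) for fold enrichment and also -1.27 for the scaled pileup, and -1.24 with no fragment added. All 4 pairs near TEAD3 had a ratio below 0, with a median of -0.50, where 55.6% of all pairs were below 0. Besides the called pair, the pair at the promoter of the neighbour FANCE had -0.65 (SE 0.41). The pair at the promoter of the neighbour RPL10A had -0.34 (SE 0.39). The pair at -37.5 kb (7.97 in control, 7.92 in sgSNHG1) was at -0.01, and at 0.09 with no fragment added. The control peak of the called pair held a 7-letter TEAD match. The stretch around it (chr6:35522832-35522892, plus strand, GRCh38 genome) is printed for that reason, with the match in capitals.
TEAD3 upstream TEAD match at 35522859: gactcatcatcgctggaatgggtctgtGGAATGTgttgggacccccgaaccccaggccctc
The match lay 163 bp from the control summit and inside the control peak. It lay 89 bp from the sgSNHG1 summit but outside the shorter sgSNHG1 peak.

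TEAD and AP-1 proteins often occupy the same enhancers, so that both sequences were counted within 100 bp of summits. The 7-letter TEAD sequence occurred in 1 of 54 control and 2 of 53 sgSNHG1 peaks near the genes, the YAP1 promoter peak in both lists and the TEAD3 upstream peak in sgSNHG1. Over the whole lists the shares were 2.05% and 2.03%. The AP-1 sequence TGACTCA, searched on both strands, occurred in 4 control and 4 sgSNHG1 peaks, which is 7.41% (2.92 to 17.6) and 7.55% (2.97 to 17.9), against 4.70% and 5.64% of all peaks. These intervals include the shares of all peaks. They treat peaks as independent, although 18 of the control and 16 of the sgSNHG1 peaks lie near TEAD1, so that they are no test against all peaks. The 6-letter core alone occurred in 5 peaks of each list, 9.26% and 9.43%, against 9.54% and 9.46% of all peaks. The TEAD1 promoter peak had 2 cores near its summit in both lists, and 1 of the short sgSNHG1 peaks at the TEAD4 promoter had 3.

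TEAD1 held 3 of the 4 control and 2 of the 4 sgSNHG1 peaks with an AP-1 sequence near the summit, all in introns. The 4 stretches in which such a match lay in a TEAD1 peak are shown to compare a shared site with those found in 1 list or far from a summit. They are from the GRCh38 genome, plus strand, at chr11:12693965-12694025, chr11:12724502-12724562, chr11:12731977-12732037 and chr11:12800234-12800294, and capitals mark the match.
TEAD1 intron, 19.5 kb: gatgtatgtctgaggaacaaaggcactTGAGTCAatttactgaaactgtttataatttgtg
TEAD1 intron, 50.1 kb: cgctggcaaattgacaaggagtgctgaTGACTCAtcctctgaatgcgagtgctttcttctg
TEAD1 intron, 57.6 kb: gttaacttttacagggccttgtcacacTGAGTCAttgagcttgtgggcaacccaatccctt
TEAD1 intron, 125.9 kb: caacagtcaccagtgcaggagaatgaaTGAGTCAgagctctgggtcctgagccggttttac
The match at 50.1 kb was near the summit in both lists, 20 bp away in control and 27 bp in sgSNHG1, and that peak reached 7.38 in control and 7.71 in sgSNHG1 (log2 ratio 0.06, SE 0.36). At 57.6 kb the match lay 58 bp from the control summit and 136 bp from the sgSNHG1 summit, with 4.82 and 4.42. The sites at 19.5 kb and 125.9 kb had a peak in a single list, sgSNHG1 with 3.98 (14 fragments) and control with 4.25 (17 fragments). At the remaining sites, an AP-1 match lay 4 bp from the summit of an sgSNHG1 peak at the TEAD4 promoter and 318 bp from that of the control peak, and another lay 8 bp and 40 bp from the summits of a peak at the NUP43 and PCMT1 promoters near LATS1.

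The rest of the pathway was summarised over lists written from general knowledge. Of 37 genes that act upstream of YAP1 or modify its activity, among them the kinases STK3 and STK4, the scaffold NF2 and the cadherin FAT4, 33 had a promoter peak in control and 30 in sgSNHG1. The 3 in control alone were DCHS1, a ligand of FAT4, with a fold enrichment of 3.50, the kinase MAP4K1 with 5.31 and the casein kinase CSNK1E with 3.74. Among all protein-coding genes with a promoter peak in either list, 8.47% had it in control alone. None of the 30 with a peak in both lists passed 2 counting SE, where 1.31% of all genes were lower and 0.464% higher. Their median log2 ratio was -0.03 against -0.07 over all genes (0.05 against -0.003 with no fragment added). NF2 had 12.1 in control and 11.7 in sgSNHG1, and STK4 had 8.46 and 8.45. On the scaled pileup 5 of the 30 were lower past 2 counting SE and 0 were higher, where 5.26% of all genes were lower and 2.07% were higher. Among the lower ones were FAT4 (-1.09), MOB1B (-0.80), MAP4K3 (-0.62) and AMOTL1 (-0.51). Their fold enrichment log2 ratios were -0.22, 0.15, -0.45 and -0.24, in the same order. MOB1B thus had the opposite sign in fold enrichment, and none of these ratios passed 2 counting SE. FAT4 and MOB1B lie on chromosome 4, where 1135 pairs had a median scaled pileup ratio of -0.54 and the lists held 2341 control and 1403 sgSNHG1 peaks.

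Of 22 further YAP and TEAD target genes, 16 had a promoter peak and each of these had it in both lists. ANKRD1, AXL, MYOF, FOXF2 and GADD45B were among those with none. None of the 16 passed 2 counting SE in fold enrichment, where 1.31% of all genes were lower and 0.464% higher. Their ratios ran from -0.54 to 0.32 with a median of -0.23, against -0.07 over all genes. With or without the added fragment 11 were below 0 and 5 above, where 60.4% of all genes were below 0 in fold enrichment and 50.5% with no fragment added. The lowest were NUAK2, a kinase (6.99 in control, 4.81 in sgSNHG1, log2 ratio -0.54, SE 0.35), and CCDC80, a matrix protein (9.14 and 6.35, log2 ratio -0.53, SE 0.32). At the other end CDC42EP3, an effector of CDC42, had 6.30 in control and 7.89 in sgSNHG1 (log2 ratio 0.32, SE 0.32), and it alone of the 16 was higher past 2 counting SE on the scaled pileup (0.67), where 2.07% of all genes were. The median of the target list was -0.15 on the scaled pileup, against -0.04 over all genes, and -0.18 with no fragment added.

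**Figure D5:**
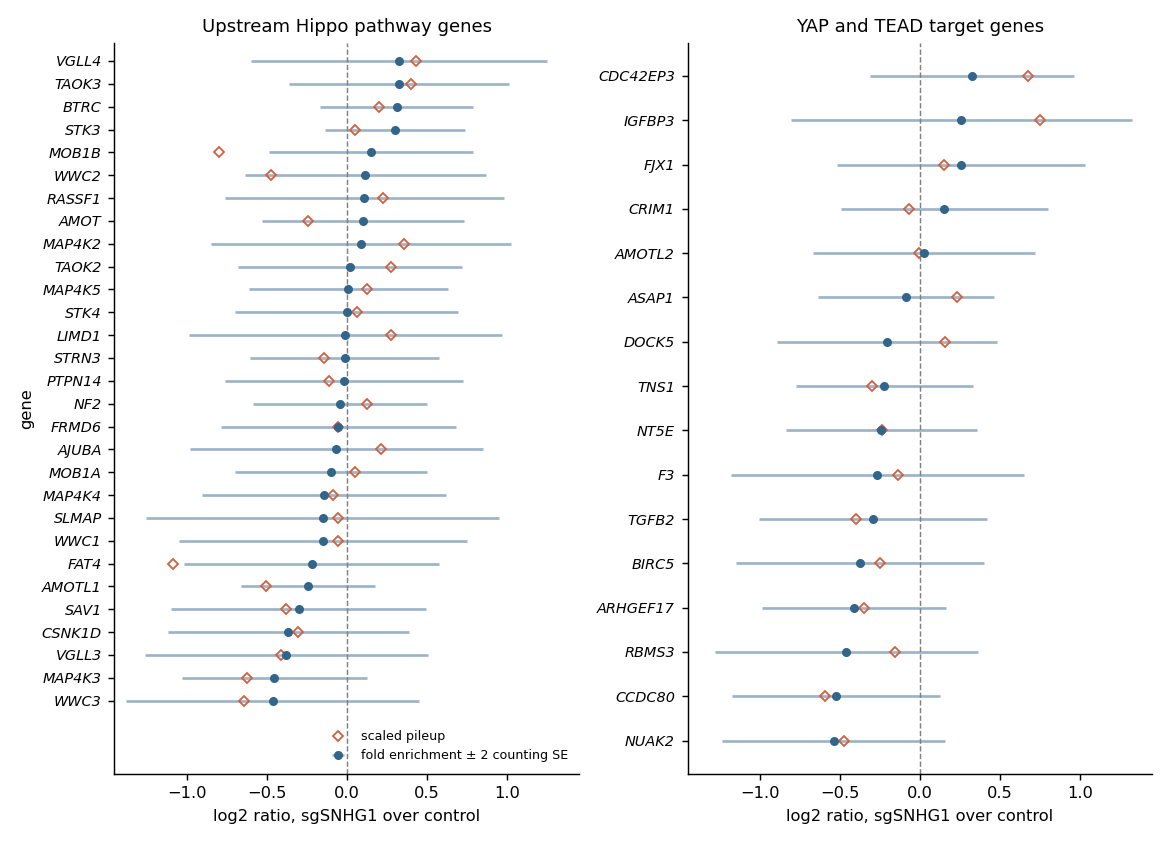
Log2 ratio of the highest promoter peak, sgSNHG1 over control, for upstream genes and target genes with a peak in both lists (y axis), without genes that are not reported here. Blue points with bars are fold enrichment with 2 counting SE on either side, and orange diamonds are the scaled pileup. Every blue bar reaches across 0, with points from -0.54 to 0.32.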

How the data were processed

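ATAC-seq was measured in 4 samples of SK-N-BE(2)C cells, 2 control and 2 sgSNHG1. The submitters' processing notes name cutadapt, BWA, Picard, GATK, deepTools, MACS2 and ChIPseeker with GRCh38; per the study's methods, adapters were trimmed, duplicate, mitochondrial and blacklisted reads were removed, reads were shifted to the transposase cut, and replicates were combined before MACS2 called peaks from paired-end fragments. Read counts per replicate were not analysed here. Versions and the MACS2 threshold are not given in the sources used here. No control library is described, so that local background comes from the same fragments. The deposited score is -log10 q times 10. Fold enrichment in the deposited lists is the ratio of summit pileup to local background after MACS2 adds 1 fragment to both, and the lists give -log10 p and, after adjustment by the authors' caller, -log10 q.

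Whole-number pileups and backgrounds were solved from fold enrichment and -log10 p (tolerance 0.001) for 47609 of 47610 control and 42682 of 42682 sgSNHG1 peaks, and the procedure was tested on simulated data. Scaled pileup is the pileup over the smallest background of its list (2.20 control, 1.72 sgSNHG1 fragments). Counting SE of a log2 ratio is from Poisson counts and covers counting error only. Shares have 95% Wilson intervals, which treat peaks as independent and hold no replicate spread. Shared peaks overlap by at least 1 bp. Peak ends and GENCODE version 44 fit the GRCh38 chromosome lengths. Genes and lists were chosen with earlier results of these data known. Named were all 10 genes, the 6 highest peaks of each list outside promoters of other genes, called pairs, and pathway genes called or found in 1 list. NF2, STK4, NUAK2, CCDC80, CDC42EP3, MOB1B, FAT4, MAP4K3, AMOTL1 and other peaks were chosen after their values were seen. Some genes of the marker and pathway lists are counted but not reported here. Python 3.11.15, pandas 2.3.3, scipy 1.17.1 and pysam 0.24.0 were used.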

Additional observations from a re-analysis of the deposited data

How the results depend on the processing

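No paired analysis was possible because the replicates of each group were combined before peaks were called, and for the same reason no replicate could be left out. Of 172 values under other settings, 150 moved by less than their counting error, their interval or 1.5 times, and 22 moved further. No ratio among them was called at the main setting, so that a called ratio could not change sign. The called pair upstream of TEAD3 was not among these values. With scaled pileup, upstream genes lower past 2 counting SE went from 0 to 5, target genes higher from 0 to 1, and CCN2 moved to -0.47. Of 70 ratios 4 changed sign: WWTR1 with scaled pileup (0.17) and, with no fragment added (chosen after seeing the data), WWTR1 (0.02), CCN2 (0.05) and the median of the upstream genes (0.05). A -log10 q of at least 5 left 35 sgSNHG1 peaks near the genes, 1 with the TEAD and 2 with the AP-1 sequence. A -log10 q of at least 10 left 4 genes with an sgSNHG1 promoter peak, and 32 control and 18 sgSNHG1 peaks near the genes, of which 53.1% and 94.4% overlapped the other list. At that limit the TEAD sequence was in 0 sgSNHG1 peaks and the AP-1 sequence in 2 of each list. An overlap of 50% of both peaks gave shares of 48.1% and 49.1%. A gene window of 10 kb left 35 control peaks. The TEAD sequence was in 1 sgSNHG1 peak within 50 bp of the summit, and in 2 control peaks and 1 sgSNHG1 peak over whole peaks. The 6-letter core, chosen after seeing the data, was in 5 and 5. Stricter limits, overlaps and windows leave fewer features by construction, and a shorter sequence gives more matches. For the scaled pileup the cause was not tested. Depth limits all ratios: the median counting SE over all pairs was 0.40.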
